A study of Mus musculus with 6 samples.

Results

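Myogenic regulators are the transcription factors that commit precursor cells to muscle and switch on the genes of the muscle fibre. The genes described here were chosen by symbol from the deposited count table through their Ensembl identifiers in GENCODE M21. The rule names symbols and no measured value, but the symbols were picked with earlier results of these data known. There were 8 of them among the 54532 genes in the table, and all 8 passed the filter on low counts. They comprise 4 myogenic basic helix-loop-helix (bHLH) factors, Myf5, Myod1, Myog and Myf6, 3 Mef2 factors, Mef2a, Mef2c and Mef2d, and the fusion factor Mymk. Mef2b, a further Mef2 factor, is not among the 8. RNA was sequenced from quadriceps of pups 10 days old, in 3 control libraries of genotype Pcyt2 flox/flox and 3 Myf5Cre-Pcyt2 libraries of genotype Myf5Cre-Pcyt2 flox/flox. Both groups carried the floxed Pcyt2 alleles and were fed chow, and the design text describes the second group as having muscle that lacks Pcyt2. Cre in that group is driven from Myf5, one of the 8 genes, and no Cre is named in the control genotype, so an effect of the Cre driver and an effect of Pcyt2 loss cannot be told apart. Whether the driver replaces part of a Myf5 allele was not given in the sources used here.

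The bHLH factors bind E-boxes, short DNA elements found near muscle genes, as dimers with E proteins. Myf5 and Myod1 act in myoblasts, the dividing precursors; Myog is needed when myoblasts differentiate, and Myf6, also called MRF4, is the member that prevails in mature fibres. Mef2 factors bind AT-rich elements and work together with the bHLH factors on contractile and metabolic genes. Mymk encodes myomaker, a membrane protein that myoblasts need to fuse into multinucleated fibres, and it acts with the small membrane protein made from Mymx. In growing muscle Pax7-positive satellite cells feed myoblasts into existing fibres, whereas most RNA of a whole muscle comes from the fibres.

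The promoters of 5 of the 8 genes could be matched in the RefSeq table of GRCm38.p6, as 7 sequences that run from 250 bases before to 50 bases after a start. No promoter of Myod1, Myf6 or Mymk was listed there, so the motif counts do not cover these genes. The promoters of Myog, Myf5 and Mef2a are shown because the search gave E-box matches, no match and a MEF2 consensus match in them, respectively. They were searched on both strands for the E-box CANNTG, of which CAGCTG and CAGGTG are special cases, and for the MEF2 consensus of 10 bases. Capitals mark matches, 5′ to 3′ on the strand of the gene. The Myog promoter lies at chr1:134289754-134290053 on the plus strand, the Myf5 promoter at chr10:107486085-107486384 on the minus strand and the Mef2a promoter at chr7:67372809-67373108 on the minus strand.
Myog: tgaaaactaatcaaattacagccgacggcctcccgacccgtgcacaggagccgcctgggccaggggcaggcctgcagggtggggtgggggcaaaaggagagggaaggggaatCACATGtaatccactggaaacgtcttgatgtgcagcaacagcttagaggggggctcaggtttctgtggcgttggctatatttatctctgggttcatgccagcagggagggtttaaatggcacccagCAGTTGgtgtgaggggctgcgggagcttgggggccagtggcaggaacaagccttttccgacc
Myf5: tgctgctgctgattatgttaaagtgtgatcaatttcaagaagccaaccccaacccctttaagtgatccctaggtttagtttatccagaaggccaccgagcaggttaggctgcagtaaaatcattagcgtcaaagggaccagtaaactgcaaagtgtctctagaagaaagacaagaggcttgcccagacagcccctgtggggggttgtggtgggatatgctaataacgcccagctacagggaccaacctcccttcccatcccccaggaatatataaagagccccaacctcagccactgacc
Mef2a: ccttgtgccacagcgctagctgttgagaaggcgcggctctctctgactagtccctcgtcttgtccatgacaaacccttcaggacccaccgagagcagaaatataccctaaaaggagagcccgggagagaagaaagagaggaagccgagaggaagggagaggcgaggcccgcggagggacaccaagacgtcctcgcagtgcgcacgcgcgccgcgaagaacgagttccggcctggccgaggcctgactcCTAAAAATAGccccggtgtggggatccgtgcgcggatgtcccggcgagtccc
The Myog sequence held 2 E-boxes, CACATG starting at base −138 and CAGTTG starting at base −12 from the start, and 0 matches of the MEF2 consensus as searched. Its stretch ctatatttat departs from that consensus at the last base only, so the count of 0 does not show that Myog lacks a Mef2 element. The Myf5 sequence held 0 matches of either motif, and the Mef2a sequence held 1 MEF2 match, CTAAAAATAG, across the start. Of the 7 promoters of these genes 3 held an E-box, 1 of Myog and 2 of Mef2c, and 72.3% of 32851 promoters of that length did. The MEF2 consensus was present in 1 of the 7 and in 3.19% of all promoters. A match describes the letters only, and factor binding was not measured.

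Library totals lay between 17775898 and 20446920 counts, and 14715 genes were tested with edgeR's quasi-likelihood test on the counts. Of these, 18.6% differed between the groups at a Benjamini-Hochberg adjusted p under 0.05, 9.02% higher and 9.59% lower in Myf5Cre-Pcyt2. Levels are given as CPM, counts scaled to a common library total after TMM scaling, and changes as log2 fold changes of Myf5Cre-Pcyt2 over control with their standard error (SE). Pcyt2 itself was counted 353, 277 and 277 times in the controls against 280, 328 and 272 times in Myf5Cre-Pcyt2, or 82.3% of the control level (95% interval 69.6 to 97.2%, adjusted p = 0.0944). Which exons are floxed was not given in the sources used here, and a count over the whole gene does not check a partial deletion. The summed level of 5 myofibre markers was 103390 to 133171 CPM in control and 70820 to 79616 CPM in Myf5Cre-Pcyt2. Y-linked and Xist counts identified 1 male in each group, replicate 3. The labels do not say whether the pups were litter mates, so the p-values cover only how much these 6 libraries vary.

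Of the 8 genes, 2 rose in Myf5Cre-Pcyt2 muscle, Myod1 and Mymk, 0 fell and 6 did not pass the test. That is 25% called, where 18.6% of all genes tested were called and 9.02% were higher, and the count was not tested against other genes. The changes were small: Mymk rose 1.29-fold and Myod1 1.20-fold, and the fitted changes of the 8 genes ran from −0.18 for Myf6 to 0.37 for Mymk, with a median of 0.12 against 0.00 for all genes tested. At an unadjusted p under 0.05 the same count was 2 higher and 0 lower, DESeq2 gave 1 higher and 0 lower, and limma-voom 2 higher and 0 lower. The ranges of the groups were apart for 2 of the 8, both higher, where 39% of all genes tested were apart in either direction and 19.9% were apart and higher. The 2 calls rest on the full set of libraries: with 1 library left out, Myod1 passed in 0 of 6 fits and Mymk in 1. With scaling by library size alone, which shifted the median of all genes by 0.21, 4 of the 8 rose. In that fit 3724 of 14715 genes were called, 3225 of them higher.

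**Figure D1:**
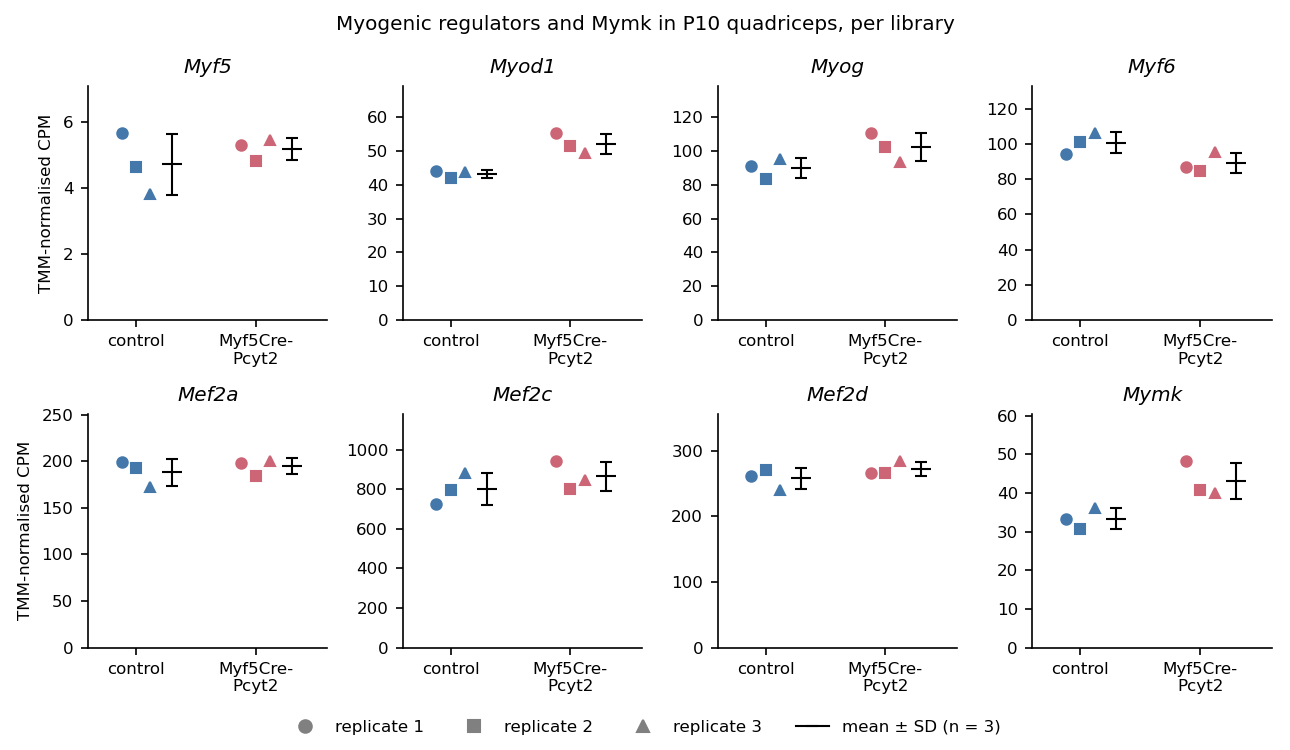
Level of each of the 8 genes in TMM-normalised CPM, with 1 point for each library (shape gives the replicate, blue control, red Myf5Cre-Pcyt2) and the mean ± SD of n = 3 beside them. The Myf5Cre-Pcyt2 points lie above all control points for Myod1 and Mymk, and the groups overlap for the other 6 genes.

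Myod1 (ENSMUSG00000009471, protein coding, GRCm38 chromosome 7, 46376474 to 46379099) encodes the bHLH factor that can turn other cells into muscle. Its level was 44.1, 41.9 and 44.0 CPM in the control libraries and 55.5, 51.4 and 49.5 CPM in the Myf5Cre-Pcyt2 libraries. Every Myf5Cre-Pcyt2 library lay above every control library, and the 3 controls lay close together. The mean went from 43.3 ± 1.21 to 52.1 ± 3.04 CPM (SD, n = 3 per group), a log2 fold change of 0.27 (SE 0.08, edgeR adjusted p = 0.0462) and a 1.20-fold rise with a 95% interval of 1.06 to 1.36. Its adjusted p ranged from 0.0099 to 0.131 over 14 alternative fits, of which 4 passed, and it was 0.0688 with DESeq2.

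Mymk (ENSMUSG00000009214, protein coding, chromosome 2, 27061636 to 27072179) had 33.2, 30.7 and 36.2 CPM in control and 48.4, 40.7 and 40.1 CPM in Myf5Cre-Pcyt2. The groups did not overlap, and Myf5Cre-Pcyt2 replicate 1 was the highest library. The mean went from 33.4 ± 2.76 to 43.1 ± 4.64 CPM, a log2 fold change of 0.37 (SE 0.10, edgeR adjusted p = 0.0319). The 1.29-fold rise had a 95% interval of 1.10 to 1.51. The call was kept without control replicate 3 (0.0318) and lost without each of the other 5 libraries, with adjusted p up to 0.108, over a range of 0.00893 to 0.108 in 14 alternatives.

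Mymx, the other fusogen of muscle, is not among the 8 genes but acts with Mymk. It had 5.51, 4.76 and 9.62 CPM in control and 10.9, 11 and 9.38 CPM in Myf5Cre-Pcyt2. Its fitted log2 change, 0.66 (SE 0.22), missed the threshold (edgeR adjusted p = 0.0639). Control replicate 3, the only male control, overlapped the Myf5Cre-Pcyt2 range, and the other 2 controls lay well below that range. Without control replicate 3 the change was 1.02 and passed (adjusted p = 0.00465). Over 14 alternatives Mymx passed in 5, with adjusted p from 0.000337 to 0.188.

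Myog (ENSMUSG00000026459, protein coding, chromosome 1, 134289989 to 134292548), whose promoter carries the 2 E-boxes shown above, had 91.4, 83.2 and 95.3 CPM in control and 111, 103 and 93.8 CPM in Myf5Cre-Pcyt2. The Myf5Cre-Pcyt2 libraries 1 and 2 were above the controls, and library 3 lay inside the control range. The log2 fold change was 0.19 (SE 0.09, edgeR adjusted p = 0.179) and did not pass, with a 95% interval from 0.99-fold to 1.31-fold. It passed with library size alone as the scaling (0.0288).

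Myf6 (ENSMUSG00000035923, protein coding, chromosome 10, 107492853 to 107494737) was the only one of the 8 with a fitted change below 0. It had 94.7, 102 and 107 CPM in control and 87.1, 84.8 and 95.6 CPM in Myf5Cre-Pcyt2. The ranges overlapped only through Myf5Cre-Pcyt2 replicate 3, which was above control replicate 1. The log2 fold change was −0.18 (SE 0.09, edgeR adjusted p = 0.174), 88.4% of control with a 95% interval of 77.3 to 101%, and it turned to 0.032 with library size alone as the scaling.

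Myf5 (ENSMUSG00000000435, protein coding, chromosome 10, 107482908 to 107486134), the gene from which Cre is driven, lies next to Myf6 on the same strand. It was the least abundant of the 8, counted 107, 80 and 66 times in the controls against 99, 110 and 118 times in Myf5Cre-Pcyt2. These counts gave 5.66, 4.64 and 3.82 CPM in control and 5.29, 4.80 and 5.45 CPM in Myf5Cre-Pcyt2, and the Myf5Cre-Pcyt2 values lay inside the control range. At this depth the 95% interval of the difference reached from 0.84-fold to 1.44-fold (log2 fold change 0.13, SE 0.18, edgeR adjusted p = 0.633).

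The Mef2 factors were the most abundant of the 8 genes by CPM, and 0 of the 3 passed the test. Mef2c (ENSMUSG00000005583, protein coding, chromosome 13, 83504034 to 83667080), which endothelial cells also express, had 724, 798 and 884 CPM in control and 946, 804 and 847 CPM in Myf5Cre-Pcyt2. The spread within each group was as wide as the difference between them (log2 fold change 0.11, SE 0.12, edgeR adjusted p = 0.537, 95% interval 0.90-fold to 1.29-fold). The 5 endothelial markers summed to 604 to 756 CPM in control and 640 to 726 CPM in Myf5Cre-Pcyt2. Of them 1 fell, Emcn, a call kept in 1 of the 6 fits with a library left out. That is 20% called, near the 18.6% of all genes tested.

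Mef2d (ENSMUSG00000001419, protein coding, chromosome 3, 88142372 to 88172086), widely expressed and spliced into a muscle form, had 262, 271 and 240 CPM in control and 266, 265 and 285 CPM in Myf5Cre-Pcyt2. The groups overlapped, with a log2 fold change of 0.08 (SE 0.09, edgeR adjusted p = 0.574) and a 95% interval of 0.92-fold to 1.21-fold. It passed with library size alone (0.29, adjusted p = 0.0400). Counts per gene do not tell splice forms apart.

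Mef2a (ENSMUSG00000030557, protein coding, chromosome 7, 67231163 to 67372858) had 199, 193 and 172 CPM in control and 198, 184 and 201 CPM in Myf5Cre-Pcyt2. Control replicate 3 was the lowest of the 6, and without it the fitted change turned from 0.05 to −0.014 (adjusted p = 0.748 and 0.934). The 95% interval was 0.90-fold to 1.19-fold. The span of Mef2a overlaps Lysmd4 and that of Mef2d an antisense transcript, both on the opposite strand, and Mef2a is overlapped on its own strand by 2 gene models, Gm44667 and Gm44668, with 78 and 1 counts over the 6 libraries. The strand setting of the counting was not given in the sources used here.

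**Figure D2:**
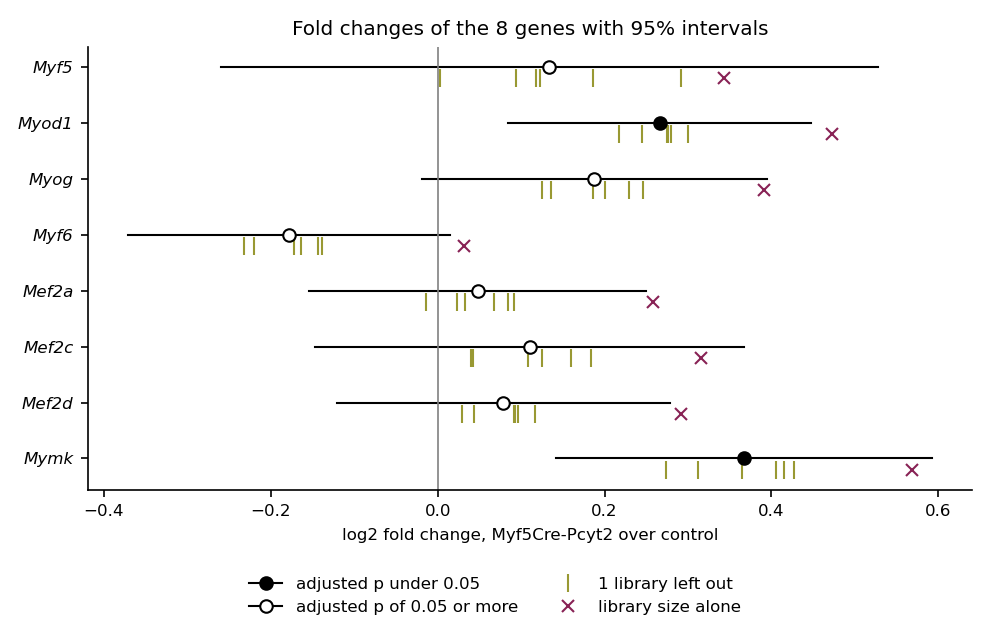
Log2 fold changes of the 8 genes, Myf5Cre-Pcyt2 over control, with 95% intervals (black lines). Filled circles passed the test and open circles did not, ticks are fits with 1 library left out and crosses are fits scaled by library size alone. The intervals of Myod1 and Mymk lie above 0, and the crosses lie to the right of the circles for all 8 genes.

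Per length, the order of the 8 levels was nearly the same in both groups. In control muscle Myf6 was highest with 79.9 ± 4.70 CPM per kb of exon (SD, n = 3), above Myog with 60.2 ± 4.11 CPM per kb, and their ranges were apart. Myog and Mef2c (51.0 ± 5.10 CPM per kb) overlapped, and Mef2d followed with 43.1 ± 2.62 CPM per kb. Myod1 (23.3 ± 0.649 CPM per kb) and Mymk (22.1 ± 1.83 CPM per kb) overlapped each other, Mef2a had 12.8 ± 0.966 CPM per kb and Myf5 2.26 ± 0.443 CPM per kb.

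In Myf5Cre-Pcyt2 muscle Myf6 (70.6 ± 4.52 CPM per kb) and Myog (68.6 ± 5.72 CPM per kb) overlapped. Mymk and Myod1 again overlapped, at 28.5 ± 3.07 and 28 ± 1.63 CPM per kb. All other neighbours in the order were apart in that group. The length is that of all annotated exons together, which for Mef2c (15715 bases) and Mef2a (14681 bases) is far more than for the bHLH genes (1263 to 2083 bases), so levels per kb of genes with many annotated exons are low estimates.

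**Figure D3:**
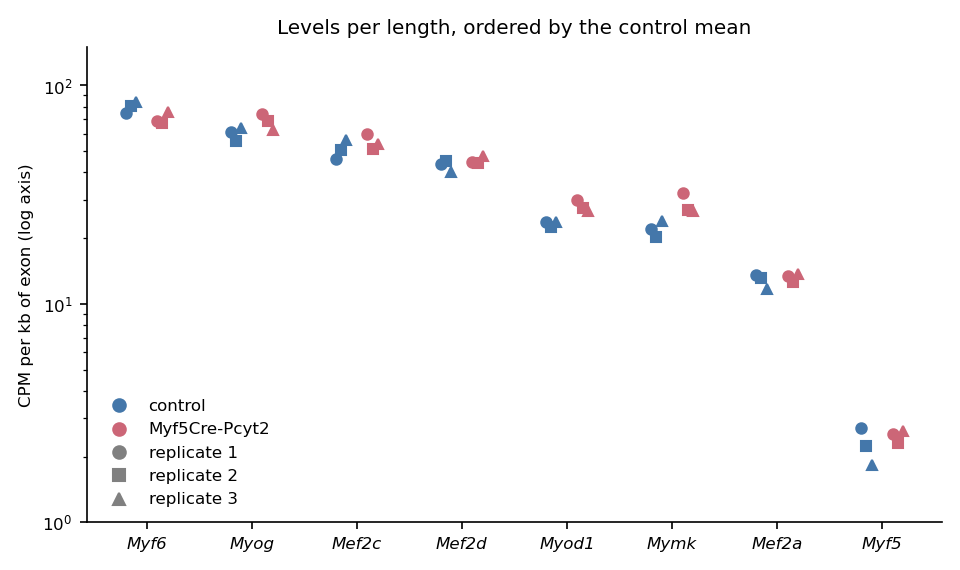
Level per kb of exon on a log axis for each library, with genes in the order of the control mean, control in blue and Myf5Cre-Pcyt2 in red. Myf6 and Myog are apart in control and overlap in Myf5Cre-Pcyt2, and Myf5 lies lowest in all 6 libraries.

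The 4 bHLH factors together held 166 ± 6.90 CPM per kb in control and 170 ± 5.16 CPM per kb in Myf5Cre-Pcyt2 (exact permutation test, two-sided, p = 0.5). Within that sum the Myf6 share was 46.1, 49.98 and 48.6% for the controls against 39.3, 40.5 and 45.1% for Myf5Cre-Pcyt2, with every Myf5Cre-Pcyt2 library below every control. Myod1 took 14.6, 14.0 and 13.6% against 17.0, 16.7 and 15.9%, with every Myf5Cre-Pcyt2 library above every control. For each of these 2 shares the exact permutation test gave p = 0.1, the smallest p that 3 against 3 libraries allow, and 0.35 adjusted over the 7 shares compared. Myog took 36.3 ± 1.54% and 40.4 ± 2.60% (exact permutation p = 0.2), and Myf5 1.37 ± 0.308% and 1.47 ± 0.0866% (exact permutation p = 0.7). Shares within a library do not depend on how libraries are scaled.

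Among Mef2a, Mef2c and Mef2d, with Mef2b left out, the shares stayed within the spread of the libraries. Mef2c took 47.7 ± 3.88% in control and 48.4 ± 2.25% in Myf5Cre-Pcyt2, Mef2d 40.3 ± 2.78% and 40.0 ± 2.05%, and Mef2a 12 ± 1.14% and 11.6 ± 0.227%. Their exact permutation p-values were 0.8, 0.8 and 0.7. The summed level was 107 ± 3.08 CPM per kb in control and 114 ± 5.17 CPM per kb in Myf5Cre-Pcyt2 (exact permutation p = 0.3).

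**Figure D4:**
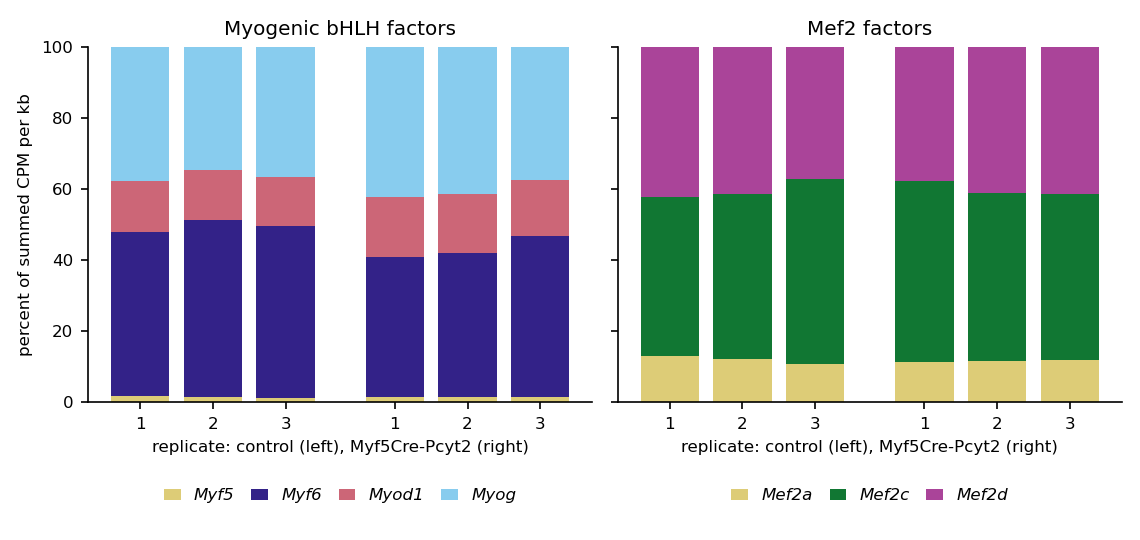
Share of each factor in the summed CPM per kb of its family, in percent, with 1 bar for each library. The Myf6 share is 46.1 to 49.98% in control and 39.3 to 45.1% in Myf5Cre-Pcyt2, and the Mef2 shares differ little between the groups.

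The E proteins, partners of the bHLH factors, had fitted changes above 0 that did not pass: 0 of 3 passed with edgeR, DESeq2 or limma-voom, and 2 had an unadjusted p under 0.05. Tcf12, named after its values were seen as the E protein gene with the smallest p, had 87.4, 89.0 and 91.3 CPM in control and 105, 101 and 107 CPM in Myf5Cre-Pcyt2 (log2 fold change 0.23, SE 0.08, edgeR adjusted p = 0.0644), and its groups were apart. All 3 passed as higher when libraries were scaled by their size alone, a fit that called 3225 of 14715 genes higher. Of 17 tested genes for inhibitors of bHLH factors, 1 rose, 2 fell and 14 did not pass, with a median of 0.08. The 17.6% called is close to the 18.6% of all genes tested, so the count sets the list apart in no way. Msc, which encodes the repressor musculin, rose from 6.23 ± 0.181 to 9.96 ± 1.22 CPM (0.68, SE 0.14, adjusted p = 0.00922). Id1, whose protein ties up E proteins, fell from 22.4 ± 3.48 to 14.5 ± 1.85 CPM (−0.62, SE 0.13, adjusted p = 0.0120), and Bhlhe41 fell from 66.4 ± 10.7 to 47.0 ± 8.36 CPM (−0.50, SE 0.14, adjusted p = 0.0352). Neither fall passed with library size alone (0.0711 and 0.0934). Leaving out Myf5Cre-Pcyt2 replicate 2 ended the call of Msc (0.0516) and of Bhlhe41 (0.132), which was also lost on leaving out control replicate 2 (0.125) or Myf5Cre-Pcyt2 replicate 3 (0.0862) and with the sex covariate (0.0526).

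Of 14 tested genes upstream of the bHLH factors, 2 rose, 1 fell and 11 did not pass, with a median of 0.02. That is 21.4% called, near the 18.6% of all genes tested. Pax7, the satellite cell factor, had 11.2, 9.69 and 9.56 CPM in control and 17.6, 16.5 and 15.2 CPM in Myf5Cre-Pcyt2 (0.69, SE 0.11, edgeR adjusted p = 0.00421) and passed in all 14 alternatives. Tead4, a factor of myoblast differentiation, rose from 11.7 ± 1.61 to 16.8 ± 2.09 CPM (0.52, SE 0.13, adjusted p = 0.0229). Lbx1, known from migrating limb precursors, fell from 65.3 ± 10.5 to 48.3 ± 5.85 CPM (−0.43, SE 0.12, adjusted p = 0.0358). Tead4 lost its call on leaving out control replicate 2 (0.0799) or Myf5Cre-Pcyt2 replicate 2 (0.104). That of Lbx1 ended on leaving out control replicate 2 (0.124), Myf5Cre-Pcyt2 replicate 2 (0.134) or replicate 3 (0.131), and with library size alone (0.142).

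Some satellite cell markers, Pax7 among them, were also called higher in Myf5Cre-Pcyt2, which by itself does not link them to Myod1 or Mymk. Of the 5 markers Pax7, Calcr, Sdc4, Vcam1 and Chodl 3 rose, Vcam1, Pax7 and Chodl, and 0 fell. That is 60% called, where 18.6% of all genes tested were called and 9.02% were higher. With 1 library left out the count of calls was as low as 2. The summed level of the 5 satellite cell markers was 111 to 115 CPM in control and 139 to 152 CPM in Myf5Cre-Pcyt2. Pax7 made up only 9.56 to 11.2 CPM of it in control and 15.2 to 17.6 CPM in Myf5Cre-Pcyt2, so the sum rests mainly on the other markers. Of the 5 myofibre markers 3 fell, Ckm, Mylpf and Tnnt3, and Ckm is also in the list of E-box targets. That is 60% called too, where 9.59% of all genes tested were lower. The count was as low as 0 with 1 library left out, and 1 of the 5 had a fitted change above 0. The part of either marker group in the changes of Myod1 and Mymk was not tested, and in whole muscle fewer cells of a type and less RNA per cell cannot be told apart.

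Of 23 tested fusion genes besides Mymk, 3 rose, 0 fell and 20 did not pass, with a median of 0.15. That is 13% called, all higher, where 18.6% of all genes tested were called and 9.02% were higher. DESeq2 called 4 higher and 1 lower, and limma-voom 4 higher and 0 lower, and at an unadjusted p under 0.05 there were 6 higher and 1 lower. Cdh15, the M-cadherin gene that is also a satellite cell product, had 41.2, 35.6 and 37.1 CPM in control and 63.1, 65.2 and 66.9 CPM in Myf5Cre-Pcyt2 (0.78, SE 0.09, edgeR adjusted p = 0.00136). Kirrel, listed also as Kirrel1, encodes an adhesion protein of the immunoglobulin family and rose from 21.6 ± 1.94 to 34.0 ± 2.29 CPM (0.66, SE 0.10, adjusted p = 0.00345). Trio, a guanine nucleotide exchange factor for Rac, rose from 66.9 ± 1.56 to 97.7 ± 6.21 CPM (0.55, SE 0.08, adjusted p = 0.00378). These 3 passed in all 14 alternatives, and with library size alone 10 of the fusion genes were higher. That scaling called 3225 of 14715 genes higher.

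Known targets of the bHLH and Mef2 factors were counted next. Of 17 tested E-box target genes, 7 rose, 2 fell and 8 did not pass (median 0.28, 52.9% called against 18.6% of all genes), and of 16 tested Mef2 target genes 1 rose, 5 fell and 10 did not pass (median −0.15, 37.5% called). The lists were not tested against each other or against other genes. Summed levels were lower for both lists. The E-box targets summed to 27096 to 35854 CPM in control and 17724 to 21183 CPM in Myf5Cre-Pcyt2, most of it from Ckm. The Mef2 targets summed to 11440 to 14655 CPM in control and 9691 to 10882 CPM in Myf5Cre-Pcyt2. Without Myf5Cre-Pcyt2 replicate 2, the library whose absence cost the most calls, 3 E-box targets were higher and 0 lower, and 0 Mef2 targets were higher and 1 lower. In that fit 846 of 14854 genes were called. With library size alone 11 E-box targets were higher and 1 lower, and 2 Mef2 targets were higher and 4 lower, with a Mef2 target median of 0.06. That scaling called 3225 of 14715 genes higher and 499 lower.

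The E-box targets that rose included 3 subunits of the acetylcholine receptor, Chrna1, Chrng and Chrnd. The subunits Chrnb1 and Chrne, in the same list, did not pass. Chrnd, Chrnb1 and Chrne were named after their values were seen. Chrna1, the alpha subunit, had 94.6, 86.4 and 113 CPM in control and 169, 163 and 149 CPM in Myf5Cre-Pcyt2 (0.71, SE 0.11, edgeR adjusted p = 0.00406). Chrng, the subunit of the fetal receptor, rose from 5.04 ± 0.924 to 9.71 ± 1.46 CPM (0.95, SE 0.17, adjusted p = 0.00632). Cdkn1a, which stops the cell cycle when myoblasts differentiate, rose from 44.5 ± 6.43 to 72.2 ± 4.22 CPM (0.70, SE 0.11, adjusted p = 0.00414). Chrna1, Chrng and Cdkn1a passed in all 14 alternatives. The 2 targets that fell, named after their values were seen, were Ckm, the muscle creatine kinase gene (−0.94, SE 0.20, adjusted p = 0.0123), and Rbm38 (−0.47, SE 0.12, adjusted p = 0.0262). Ckm passed in 11 of 14 alternatives and in 4 of the 6 fits with a library left out, with adjusted p up to 0.0919, and Rbm38 in 9 and 2 of them, with adjusted p up to 0.121. Ckm went from 18589, 25702 and 17369 CPM in control to 11985, 9828 and 10368 CPM in Myf5Cre-Pcyt2.

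The 5 Mef2 targets that fell were Stac3, Smyd1, Myoz1, Xirp2 and Nr4a1, the last 2 named after their values were seen. Stac3, needed for the coupling of excitation to contraction, had 273, 325 and 250 CPM in control and 199, 152 and 149 CPM in Myf5Cre-Pcyt2 (−0.76, SE 0.14, edgeR adjusted p = 0.00596), and passed in all 14 alternatives. Smyd1, a muscle methyltransferase needed for myosin assembly, fell from 565 ± 57.0 to 389 ± 27.0 CPM (−0.54, SE 0.11, adjusted p = 0.00974). Myoz1, a Z-disc protein gene of fast fibres, fell with −0.61 (SE 0.14, adjusted p = 0.0145). The 1 Mef2 target that rose, named after its values were seen, was Myoz2, the slow-fibre relative of Myoz1 (0.69, SE 0.20, adjusted p = 0.0370), with 152, 138 and 262 CPM in control and 277, 308 and 305 CPM in Myf5Cre-Pcyt2. Myoz2 passed in 1 of the 6 fits with a library left out. Without Myf5Cre-Pcyt2 replicate 2, Stac3 alone of the 5 passed, and Smyd1, Myoz1, Xirp2 and Nr4a1 did not (0.0519 for Smyd1 and 0.0719 for Myoz1). Leaving out replicate 3 of that group also ended the call of Myoz1 (0.0686).

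Of 19 tested genes listed as cofactors, signal enzymes or related regulators of Mef2, 2 fell, 0 rose and 17 did not pass. That is 10.5% called against 18.6% of all genes tested. The median of the list was −0.05 and turned to 0.16 with library size alone. The list was broad and also held Srf, Mrtfa and Mrtfb, which are not Mef2 cofactors in the strict sense, and Mef2b, itself a Mef2 factor. Mef2b was counted 6, 13 and 5 times in control and 10, 11 and 12 times in Myf5Cre-Pcyt2 (edgeR adjusted p = 0.763). DESeq2 and limma-voom each also gave 2 lower and 0 higher, and at an unadjusted p under 0.05 there were 1 higher and 4 lower. Srf, the serum response factor gene, fell from 95.7 ± 5.76 to 74.6 ± 3.53 CPM (−0.36, SE 0.08, edgeR adjusted p = 0.0166). Kat2b, an acetyltransferase that also acts on MyoD, fell from 59.3 ± 4.05 to 46.6 ± 2.27 CPM (−0.35, SE 0.09, adjusted p = 0.0207). Neither passed with library size alone (0.246 and 0.284), and without control replicate 2 or Myf5Cre-Pcyt2 replicates 2 or 3 in turn 0 of the 19 passed.

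**Figure D5:**
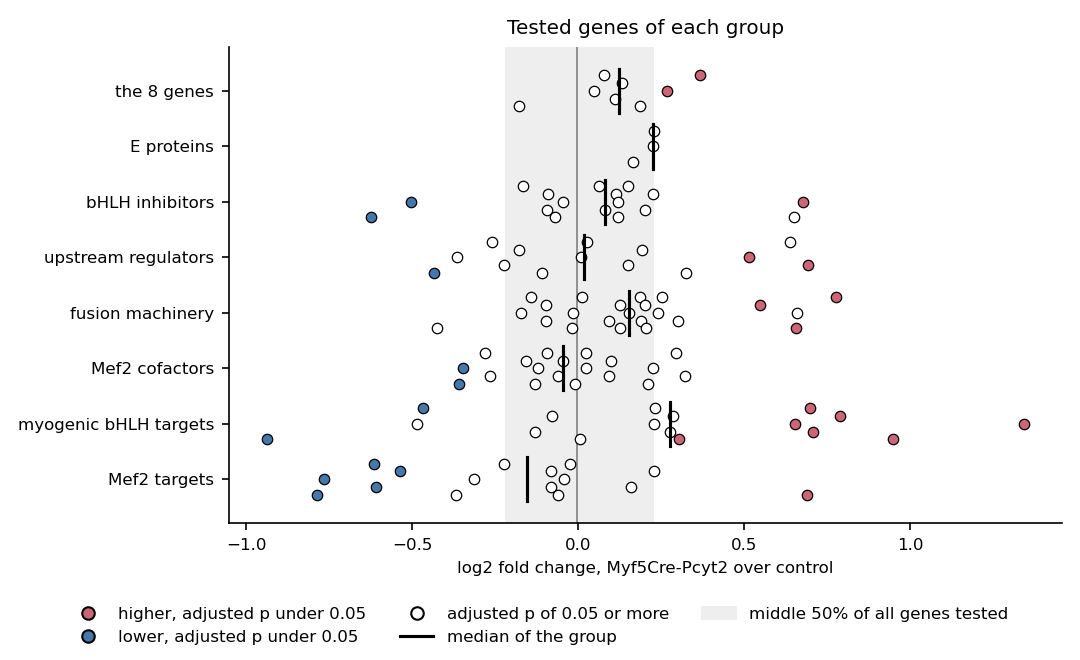
Log2 fold changes of the tested genes of each group, with 1 circle per gene, filled where the test was passed, a black bar at the median of the group and grey shading over the middle 50% of all genes tested. Most of the 8 genes lie within the shading, and the E-box and Mef2 targets spread beyond it on both sides.

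For each of the 8 genes, likeness was measured as Pearson's r of log2 CPM over the 6 libraries against 10094 other genes with a mean of at least 5 CPM. The genes most like Mymk were Mphosph6 and Rnd3 (r = 0.997 and 0.990), and those most like Myod1 were Sec31a and Apex1 (r = 0.990 and 0.990). Ncbp1 and Pola1 were closest to Myog, Ptges2 to Myf6, and Heatr1 and Ints10 to Myf5. Ctsf and Nsun5 were closest to Mef2a, Sdf4 and Prepl to Mef2c, and Tnip2 and Tbc1d17 to Mef2d. The values share libraries and scaling, and with 6 points and this many genes an r near 1 was found for every one of the 8.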

How the data were processed

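The deposited values are whole-number counts per Ensembl gene, as deposited by the authors. The submitters' processing notes list featureCounts, Subread 1.6.2, Bowtie2 2.3.4.1, Trim Galore 0.5.0 and the build GRCm38 (mm10), with no roles. Annotation release, strand setting and treatment of multi-mapping reads were not given in the sources used here. Computation used R 4.3.3, edgeR 4.0.16, limma 3.58.1, DESeq2 1.42.0 and Python 3.11.15. Genes were filtered with filterByExpr, scaled with TMM and tested by edgeR's quasi-likelihood method (two-sided), with p-values adjusted by Benjamini-Hochberg over all 14715 genes tested. The procedure was tested on simulated counts. Family shares were compared with exact permutation tests. The 8 genes, the 7 gene lists and the 11 marker lists were chosen with earlier results of these data known. Text names Pcyt2, the 8 genes, Mymx, up to 3 called genes with the smallest p per list, and the 2 genes most like each of the 8; others are said to have been named after their values were seen. One gene that this rule names is not reported here. Alternatives were limma-voom, the DESeq2 test, a replicate block, a sex covariate, no filter, a filter of 1 CPM in 3 libraries, scaling by DESeq2 size factors or by library size alone, and each library left out, 14 fits in all.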

Additional observations from a re-analysis of the deposited data

How the results depend on the processing

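Changed genes numbered 2739, 1731 with a replicate block, and 846 to 2785 with 1 library left out. Same-numbered libraries did not deviate together (r of −0.11, −0.17 and 0.02), which gave no sign of a pairing by number. So few libraries cannot exclude one, and replicate 3 was the male in both groups. The count of 2 among the 8 genes was 4 with library size alone, 1 with DESeq2, 1 without a filter, 0 with the replicate block, 0 with the sex covariate, and 0 to 1 with 1 library left out. Myod1 kept its direction but did not pass with DESeq2 (0.26), without a filter (0.26), with the replicate block (0.27) or with the sex covariate (0.27), and had 0.22 to 0.30 with 1 library left out. Mymk did not pass with the block (0.37) or the sex covariate (0.37), and had 0.27 to 0.43 with 1 library left out. With library size alone Myf6 turned to 0.032, and Myog (0.39) and Mef2d (0.29) passed. That scaling gave 3 called E proteins, 1 inhibitor, 5 upstream regulators, 1 Mef2 cofactor and 10 fusion genes, and 86.6% of called genes higher against 48.5%. Without a filter 5 upstream regulators and 5 fusion genes were called, with DESeq2 5 fusion genes, and with the block 1 Mef2 cofactor. The block also ended the calls of Bhlhe41 (adjusted p = 0.0661), Lbx1 (0.0563), Kat2b (0.0643) and Myoz1 (0.0594). With 1 library left out the counts were 1 to 3 inhibitors, 1 to 4 upstream regulators, 0 to 4 Mef2 cofactors, 3 to 5 fusion genes, 3 to 9 E-box targets and 1 to 6 Mef2 targets. Mef2a ran from −0.014 to 0.092. In percentage points the shares ran from −0.063 to 0.24 for Myf5, −0.94 to 0.20 for Mef2a, −0.91 to 2.83 for Mef2c and −1.89 to 0.87 for Mef2d, so these had no fixed sign. The cause was not tested. Myf5, at 66 to 118 counts, had the widest interval.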

Other observations

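Control replicate 3 stood above the other 2 controls for several genes of immature or slow muscle among the lists, chosen after their values were seen. It was also the only male control, so sex and other differences between these animals cannot be told apart. Myl4, the embryonic and atrial myosin light chain gene, had 21.4, 16.8 and 51.6 CPM in control and 73.7, 75.6 and 78.1 CPM in Myf5Cre-Pcyt2. Tnnt2, the cardiac troponin T gene of early muscle, had 22.4, 23.4 and 42.1 CPM in control and 48.5, 50.8 and 52.2 CPM in Myf5Cre-Pcyt2. Myod1 had 44.0 CPM in control replicate 3 and 44.1 CPM in control replicate 1. The heart markers Nppa and Myl7 had 0 to 3 and 0 to 1 counts per library, and Myh6 was counted 97, 54 and 75 times in the controls against 178, 2514 and 1421 times in Myf5Cre-Pcyt2.

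Among other cell types, 2 of 4 Schwann cell markers rose, with a summed level of 223 to 264 CPM in control and 324 to 452 CPM in Myf5Cre-Pcyt2. Of 3 tenocyte markers 2 rose, from a summed 103 to 120 CPM to 147 to 161 CPM, and of 4 fibroblast markers 1 rose, with sums of 4318 to 6346 CPM and 6405 to 7394 CPM. Of 4 smooth muscle and pericyte markers 1 fell, with sums of 1425 to 1724 CPM and 1044 to 1252 CPM. The erythroid list had 1 of 3 higher, and of the leukocyte and adipocyte lists 0 of 4 and 0 of 3 passed with edgeR, with 1 and 0 at an unadjusted p under 0.05. Of all genes tested, 9.02% were higher and 9.59% lower. With 1 library left out the lowest counts were 2 Schwann cell, 1 tenocyte, 1 fibroblast, 1 smooth muscle and pericyte and 0 erythroid calls.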
